A study of Mus musculus with 12 samples.

Results

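The liver transcripts of 10 chaperones and folding factors of the endoplasmic reticulum (ER) were examined, *Hspa5*, *Hsp90b1*, *Pdia4*, *Pdia6*, *Sdf2l1*, *Creld2*, *Manf*, *Dnajb11*, *Dnajc3* and *Calr*. They were chosen by gene symbol from the 38926 symbols of the count tables, with earlier results of these data known. All 10 had enough reads to be tested. The study concerned the clock repressor REV-ERBα, encoded by *Nr1d1*, and its relation to the glucocorticoid receptor, which depends on chaperones for hormone binding. Livers came from wild-type mice (WT) and mice with a knockout of Rev-erb alpha (Rev KO), all 12 weeks old and on a mixed 129Ola/C57BL6 background. Each genotype was sampled at ZT8, in the light phase (ZT, or zeitgeber time, counts hours from the onset of light), and at ZT20, in the dark phase, with 3 libraries per group and 12 in all. Per the methods of the study, the mice were males from heterozygous breeding, were kept in equal phases of light and dark, and had free access to food. The knockout is present in the whole body and not only in the liver, and no agent was given to any group.

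The ER is where secreted and membrane proteins are folded, and hepatocytes, which secrete most plasma proteins, have a large ER. BiP (*Hspa5*), an HSP70 chaperone, binds unfolded chains with the help of J-domain cochaperones such as ERdj3 (*Dnajb11*) and P58IPK (*Dnajc3*), GRP94 (*Hsp90b1*) is the HSP90 of the ER, and calreticulin (*Calr*) is a lectin that binds glycoproteins. Protein disulfide isomerases such as ERp72 (*Pdia4*) and P5 (*Pdia6*) form and rearrange disulfide bonds. *Sdf2l1* encodes a partner of the ER J-domain proteins, and *Creld2* and *Manf* encode small ER proteins known for their induction when unfolded proteins accumulate. This induction, the unfolded protein response, runs through the sensors ATF6, IRE1 and PERK, and ATF6 and XBP1 act on many of these genes through the ER stress response element (ERSE).

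The promoters of the members are shown because an exact ERSE is shared by most of them. The RefSeq promoter table (GRCm38.p6, the same assembly as mm10) held a window of 300 bases, from 250 before to 50 after the start of transcription, for 9 of the 10 members. The ERSE, searched on both strands as CCAAT and CCACG with 9 bases of any kind between them, was found in 6 of these 9 windows, those of *Hspa5*, *Hsp90b1*, *Pdia6*, *Creld2*, *Dnajc3* and *Calr*. Among all 32851 promoter windows of the table, 39 held it (0.119%). *Hspa5* is shown from chr2:34771870-34772089 (plus strand), *Hsp90b1* from chr10:86705445-86705664 (minus strand), *Pdia6* from chr12:17266369-17266588 (plus), *Creld2* from chr15:88819426-88819645 (plus), *Dnajc3* from chr14:118937712-118937931 (plus) and *Calr* from chr8:84846932-84847151 (minus). Each sequence covers the 220 bases before the start, reads from 5′ to 3′ on the strand of the gene, and has both ends of every exact ERSE in capitals (CCAAT and CCACG, or CGTGG and ATTGG where the element lies on the other strand).
Hspa5: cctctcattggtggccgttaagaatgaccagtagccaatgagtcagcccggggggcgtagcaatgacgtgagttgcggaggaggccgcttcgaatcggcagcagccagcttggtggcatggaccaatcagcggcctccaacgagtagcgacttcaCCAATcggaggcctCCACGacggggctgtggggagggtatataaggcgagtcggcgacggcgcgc
Hsp90b1: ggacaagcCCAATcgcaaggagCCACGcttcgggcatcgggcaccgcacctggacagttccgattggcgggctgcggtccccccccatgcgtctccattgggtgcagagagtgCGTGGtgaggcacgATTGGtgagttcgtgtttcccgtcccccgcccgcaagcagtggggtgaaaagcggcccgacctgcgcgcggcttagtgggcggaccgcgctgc
Pdia6: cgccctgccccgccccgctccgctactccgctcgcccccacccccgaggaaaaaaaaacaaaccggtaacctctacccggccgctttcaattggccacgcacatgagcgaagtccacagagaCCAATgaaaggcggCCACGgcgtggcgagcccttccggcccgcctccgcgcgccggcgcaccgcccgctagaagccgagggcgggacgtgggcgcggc
Creld2: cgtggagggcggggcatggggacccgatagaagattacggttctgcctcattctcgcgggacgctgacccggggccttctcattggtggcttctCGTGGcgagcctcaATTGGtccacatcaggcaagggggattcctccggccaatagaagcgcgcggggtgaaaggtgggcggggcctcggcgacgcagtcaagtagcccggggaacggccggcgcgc
Dnajc3: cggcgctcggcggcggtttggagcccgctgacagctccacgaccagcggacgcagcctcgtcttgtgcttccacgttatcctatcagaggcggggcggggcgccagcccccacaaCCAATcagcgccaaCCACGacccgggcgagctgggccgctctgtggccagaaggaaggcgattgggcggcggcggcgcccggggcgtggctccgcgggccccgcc
Calr: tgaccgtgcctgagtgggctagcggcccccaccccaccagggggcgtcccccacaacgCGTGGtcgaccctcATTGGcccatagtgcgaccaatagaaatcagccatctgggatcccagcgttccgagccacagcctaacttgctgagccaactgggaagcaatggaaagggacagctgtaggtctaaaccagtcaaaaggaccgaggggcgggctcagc
The *Hsp90b1* window held the element 2 times, from -212 to -194 and, on the other strand, from -107 to -89 relative to the start. In *Hspa5*, it lay closest to the start, from -65 to -47. For *Hspa5*, *Hsp90b1*, *Pdia6* and *Calr*, the GENCODE annotation also has transcripts that begin upstream of the RefSeq start.

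The remaining promoter windows held related letters or none. With at most 1 mismatch allowed in the CCACG end, the *Pdia4* window also had a match, and 0.998% of all windows did. The related element ERSE-II, searched as ATTGG and CCACG with 1 base of any kind between them, was found in *Dnajb11* (0.0365% of all windows), from 8 to 18 bases after the start. The *Sdf2l1* window held CCAAT boxes, which 37.4% of all windows have, without an ERSE. The core UPRE (TGACGTGG, 0.676% of all windows), the heat shock element (GAA, TTC and GAA with 2 bases of any kind between each, 0.603%) and the RORE bound by REV-ERBα (AANT followed by AGGTCA, 0.219%, or by GGGTCA, 0.216%) were in no member window. The E-box CACGTG was in that of *Calr* and in 7.15% of all windows. These matches are descriptions of the letters and say nothing about occupancy by a factor.

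Between 17641809 and 26060192 reads per library were counted on genes, and the least covered member still had 358 reads or more in every library. Values are CPM, that is counts per 1000000 reads of the library size after TMM scaling, which corrects for differences in composition. The hepatocyte marker *Alb* (albumin) was at 33750 to 77210 CPM, and the summed markers of other liver cell types were far lower, with 295 to 544 CPM for macrophages, 253 to 302 for endothelium, 232 to 324 for stellate cells and fibroblasts, 37.9 to 94.7 for cholangiocytes and 11.6 to 19.2 for lymphocytes and plasma cells. In bulk liver RNA, fewer cells of a type and less RNA per cell cannot be told apart. *Nr1d1* did not separate the genotypes (75.3 to 129 CPM in WT and 63.0 to 80.6 in Rev KO at ZT8; adjusted p = 0.143, edgeR), as reads were still assigned to its symbol. *Arntl*, a gene repressed by REV-ERBα, did separate them at ZT8, with 0.448 to 0.796 CPM in WT and 22.7 to 25.7 in Rev KO. In the WT group at ZT8, replicates 2 and 3 had high acute phase transcripts (*Saa1* at 4972 and 6489 CPM), and replicate 1 did not (60.8). The labels number the libraries without naming animals, so that p-values measure the spread between these samples.

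The members differed widely in level. Per kilobase of annotated exon sequence, *Calr* was the most abundant in all 4 groups, with 267 ± 4.8 CPM per kb in WT at ZT8 (SD, n = 3). *Hsp90b1* followed with 172 ± 11 and *Hspa5* with 126 ± 18. *Pdia6* (75.8 ± 1.8) lay above *Pdia4* (65.2 ± 2.9) and *Dnajc3* (62.5 ± 4.2), and the ranges of the last 2 overlapped. *Dnajb11* (33.0 ± 3.6) was next, then *Sdf2l1* (24.4 ± 1.2). The ranges of *Creld2* (14.8 ± 3.8) and *Manf* (12.5 ± 3.6), at the low end, overlapped. At ZT20 in WT, *Hspa5* (347 ± 13) was above *Hsp90b1* (254 ± 11), and *Pdia4* (138 ± 5) was above *Pdia6* (112 ± 5), without overlap in either pair. The order depends on the length taken for a gene. Per kilobase of the longest principal transcript, the mean of *Hspa5* again went from below *Hsp90b1* at ZT8 (145 against 246 CPM per kb) to above it at ZT20 (399 against 362.5), whereas *Pdia6* was above *Pdia4* at both times (130.4 against 65.2 and 192 against 138). On this scale *Manf* (19.6) was above *Creld2* (14.8) at ZT8.

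All 10 ER chaperone transcripts were higher at ZT20 than at ZT8 in WT liver, and 9 of them passed the test (adjusted p below 0.05, edgeR's quasi-likelihood test over all 14488 tested genes). For comparison, 27.7% of all tested genes were called, 13.8% as higher at ZT20. Because the members were chosen with earlier results known, such shares describe the list and are no independent test of it. The log2 changes of the members ranged from 0.54 to 1.58, with a median of 0.89 against -0.00 over all tested genes. In each of the 10, the 3 ZT20 values lay above the 3 ZT8 values, a separation in this direction that 21.5% of all tested genes showed. Summed over the 10 genes, the level went from between 2777 and 3123 CPM to between 5295 and 5532.

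**Figure D1:**
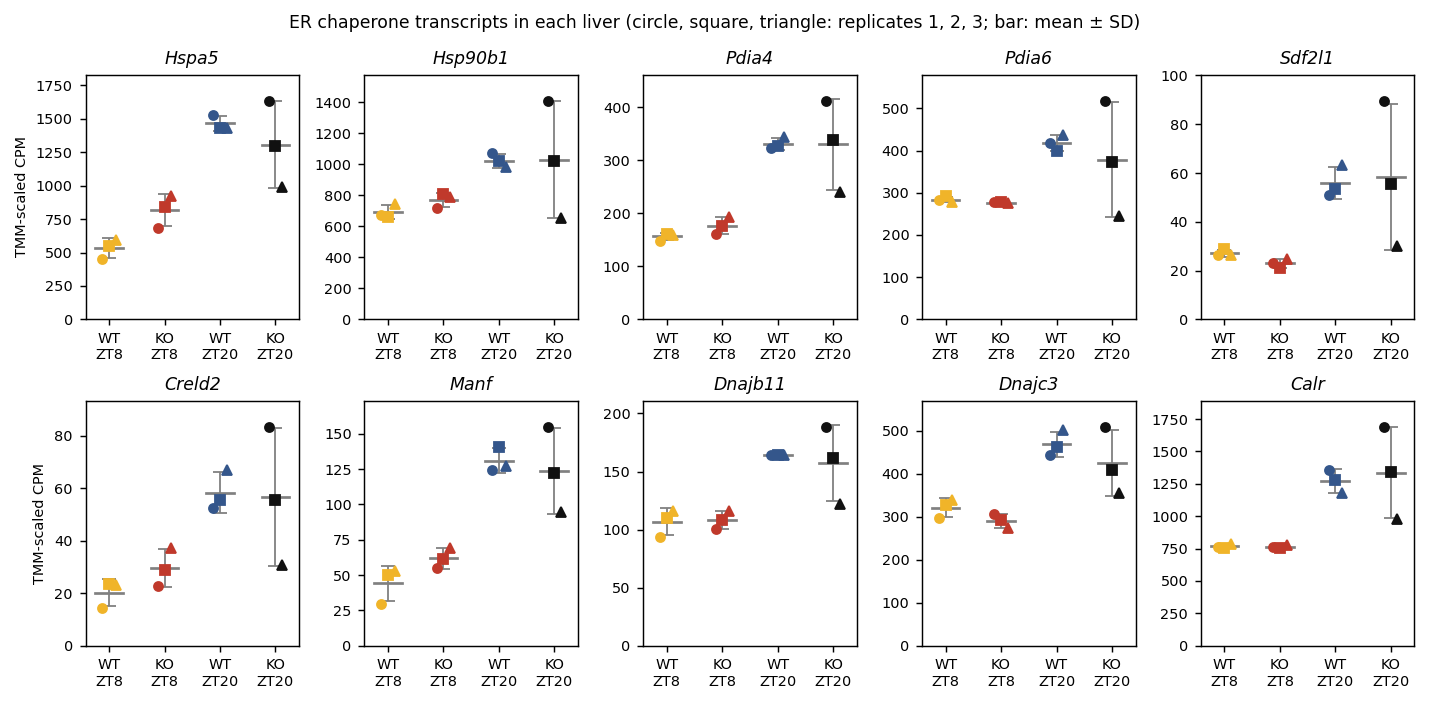
Level of each ER chaperone transcript (vertical axis, TMM-scaled CPM from 0) in the 12 livers, with 1 panel per gene and the 4 groups on the horizontal axis; symbols are single livers, horizontal bars the group mean and error bars the SD of 3 livers. In WT, the 3 ZT20 livers lie above the 3 ZT8 livers in all 10 panels, and the Rev KO livers at ZT20 are spread widely in every panel.

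The BiP system showed both large and small changes. *Hspa5* (chr2:34771970-34777547 in mm10) was at 450.5, 552 and 597 CPM in the WT livers at ZT8 and at 1531, 1432 and 1433 at ZT20. The lowest ZT20 value was thus far above the highest ZT8 value, and the change was 2.75-fold (log2 change 1.46, standard error 0.167, adjusted p = 1.97e-05, edgeR). *Dnajb11*, its cochaperone ERdj3, rose from 93.9, 110.3 and 116 CPM to 164.6, 164.5 and 164.4, or 1.54-fold (log2 change 0.63, adjusted p = 0.00225, edgeR). The ZT20 values of this gene were almost identical between livers. *Dnajc3*, which encodes P58IPK, rose from 298, 327 and 339 CPM to 443, 461 and 501 (1.46-fold, adjusted p = 0.00231, edgeR), the lowest of the 10 estimates. *Sdf2l1* went from 26.2, 28.7 and 26.3 CPM to 51.0, 53.4 and 63.3 (2.07-fold, standard error 0.322 on the log2 scale, adjusted p = 0.0408, edgeR).

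The small ER proteins *Manf* and *Creld2* had the highest estimates on the log2 scale, within their standard errors of that of *Hspa5*. *Manf* was at 29.5, 49.8 and 52.8 CPM at ZT8 and at 124.5, 141 and 127.5 at ZT20, a 2.98-fold rise (log2 change 1.58, standard error 0.233, adjusted p = 0.000896, edgeR). *Creld2* was at 14.3, 23.5 and 23.1 CPM and then at 52.4, 55.6 and 67.1, a 2.89-fold rise with a wide standard error of 0.367 on the log2 scale (adjusted p = 0.0149, edgeR). In both genes, and in *Hspa5*, replicate 1 at ZT8 was the lowest liver of its group. The same held for *Pdia4*, *Sdf2l1*, *Dnajb11* and *Dnajc3*, whereas another liver was the lowest for *Hsp90b1*, *Pdia6* and *Calr*.

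Of the remaining members, *Calr* rose in WT from 762, 758 and 784 CPM to 1356, 1282 and 1178 (1.66-fold, log2 change 0.73, adjusted p = 0.0016, edgeR). The 3 ZT8 livers differed very little in this gene. The disulfide isomerases differed in size of change, with *Pdia4* going from 148, 161 and 159.6 CPM to 322, 326.5 and 343 (2.12-fold, adjusted p = 0.000114, edgeR). *Pdia6* went from 282, 291 and 278 CPM to 418, 399.5 and 436 (1.47-fold, adjusted p = 0.0487, edgeR). *Hsp90b1*, which encodes GRP94, went from 673, 663 and 747 CPM to 1070, 1023 and 980 (1.48-fold), and did not pass the test (adjusted p = 0.0521, edgeR), although its ZT8 and ZT20 values did not overlap. With DESeq2 it passed (adjusted p = 0.0128), and the count was then 10 of 10.

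*Hspa5*, *Pdia4*, *Creld2*, *Manf*, *Dnajb11*, *Dnajc3* and *Calr* passed in WT in each of the 12 fits that left out 1 library. *Pdia6* and *Sdf2l1* each lost the threshold in 10 of these 12 fits, namely in all but those without replicate 1 or replicate 3 of the Rev KO livers at ZT20, with adjusted p up to 0.132 and 0.113 (edgeR), whereas *Hsp90b1* gained it in these same 2 fits. With the WT group at ZT8 reduced to replicate 1, the liver without the acute phase transcripts, all 10 log2 changes stayed above 0, with *Hspa5* at a log2 change of 1.70 and *Manf* at 2.15. That group then held 1 library, without a spread of its own.

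In Rev KO liver, all 10 members were again higher at ZT20, with log2 changes from 0.42 to 1.35 and a median of 0.74 (0.01 over all tested genes), and 7 passed the test. Of all tested genes, 17.5% were called in this genotype, 8.79% as higher at ZT20. Groups were separated for these 7 members, and 17.5% of all tested genes were separated in this direction. *Calr* rose 1.75-fold from 765, 751 and 776 CPM to 1688, 1340.0 and 981 (adjusted p = 0.0015, edgeR). *Pdia4* rose 1.87-fold, from 161, 177 and 192.5 CPM to 412, 337 and 239.6 (adjusted p = 0.00103, edgeR). Among the partners of BiP, *Dnajc3* rose from 306, 292 and 273 CPM to 509, 409.8 and 356 (log2 change 0.55, adjusted p = 0.00403), and *Dnajb11* from 100.4, 108 and 116 CPM to 188, 161 and 122 (log2 change 0.54, adjusted p = 0.00948, edgeR). For these 4 genes, the change in Rev KO minus that in WT was between -0.18 and 0.08 on the log2 scale, and none of these differences passed the test of the interaction given further on.

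*Hspa5* rose 1.60-fold in Rev KO, from 686, 838 and 925 CPM to 1635, 1297 and 987 (log2 change 0.68, standard error 0.165, adjusted p = 0.0114, edgeR). Its highest ZT8 liver lay just under its lowest ZT20 liver. *Manf* rose 2.01-fold, from 54.8, 61.2 and 69.1 CPM to 154.7, 122 and 94.3 (adjusted p = 0.0155, edgeR). *Sdf2l1*, with the highest estimate in this genotype, rose 2.54-fold, from 23.0, 21.1 and 24.9 CPM to 89.6, 55.6 and 30.1 (adjusted p = 0.0229, edgeR). *Creld2* went from 22.9, 29.0 and 37.4 CPM to 83.3, 55.6 and 30.9, and these groups overlapped (log2 change 0.93, adjusted p = 0.118, edgeR). So did *Hsp90b1*, with 718, 808 and 786 CPM against 1410, 1024 and 656.5 (log2 change 0.42, adjusted p = 0.175), and *Pdia6*, with 277, 277.0 and 276 against 518, 372 and 246 (log2 change 0.45, adjusted p = 0.133, edgeR).

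A single liver accounted for each of these overlaps. Replicate 3 of the Rev KO livers at ZT20 was the lowest of its group in all 10 members. Without it all 10 passed, beside 13.5% of all tested genes. The log2 changes were then 1.22 for *Creld2* (adjusted p = 0.0243), 0.66 for *Hsp90b1* (adjusted p = 0.00324) and 0.68 for *Pdia6* (adjusted p = 0.00114, edgeR). *Sdf2l1* lost the threshold without any of the 3 Rev KO livers at ZT8 or without replicate 2 at ZT20 (adjusted p up to 0.0784), and *Manf* without replicate 1 or replicate 2 of the Rev KO livers at ZT8 (up to 0.0605, edgeR).

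**Figure D2:**
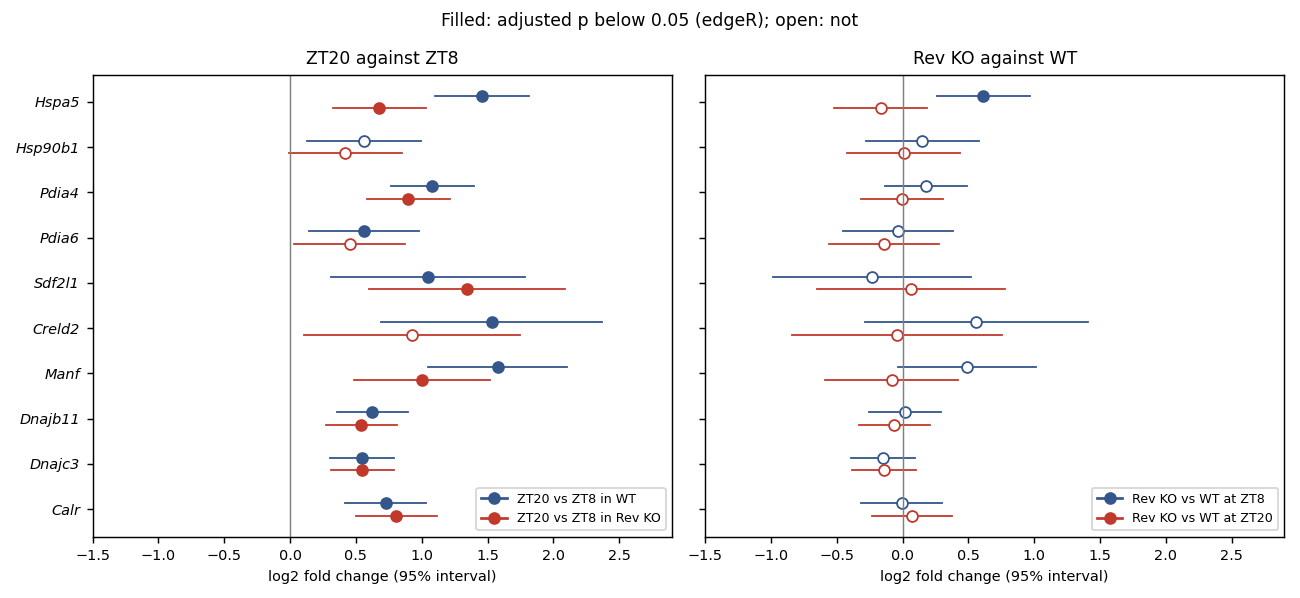
Log2 fold changes (horizontal axis, with 95% intervals) of the 10 ER chaperones, on the left ZT20 against ZT8 in each genotype and on the right Rev KO against WT at each time; filled points pass an adjusted p of 0.05. On the left, 9 points in WT and 7 in Rev KO are filled and all lie right of 0, whereas on the right only *Hspa5* at ZT8 is filled.

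Between the genotypes at ZT8, *Hspa5* was the member that passed the test. Thus 1 of the 10 was called higher and 0 lower, beside 8.45% of all tested genes (4.4% higher and 4.04% lower), and the log2 differences ranged from -0.23 to 0.61 with a median of 0.08. *Hspa5* was at 450.5, 552 and 597 CPM in WT and at 686, 838 and 925 in Rev KO, so that every Rev KO liver was above every WT liver. The difference was 1.53-fold (log2 0.61, standard error 0.165, 95% interval 0.26 to 0.97, adjusted p = 0.0337, edgeR). DESeq2 gave 0.61 with an adjusted p of 0.00333. With the replicate number as a block, the difference did not pass (0.61, adjusted p = 0.0634, edgeR), and it did not pass in 6 of the 12 fits that left out 1 library. These were the fits without replicate 1 (adjusted p = 0.0806) or 2 (0.0977) of WT at ZT8, replicate 2 (0.106) or 3 (0.0978) of Rev KO at ZT8, replicate 2 of WT at ZT20 (0.0529) and replicate 2 of Rev KO at ZT20 (0.0522), and the log2 difference over all 12 lay between 0.50 and 0.72. The acute phase transcripts differed in the other direction, with 7 of 12 such genes lower in Rev KO. Within WT at ZT8, the liver without them had the lowest *Hspa5* value, and against this liver alone the log2 difference was 0.85 (adjusted p = 0.111, edgeR).

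*Manf* and *Pdia4* also had non-overlapping genotypes at ZT8 without passing the test. Of all tested genes, 25.6% were separated in this way, 13.2% with Rev KO on the higher side. *Manf* was at 29.5 to 52.8 CPM in WT and 54.8 to 69.1 in Rev KO (log2 difference 0.49, 95% interval -0.03 to 1.01, adjusted p = 0.239, edgeR). *Pdia4* was at 148 to 161.1 CPM in WT and 161.1 to 192.5 in Rev KO (log2 difference 0.18, adjusted p = 0.506, edgeR), so that the nearest livers were all but equal. *Creld2* had a difference nearly as large as *Hspa5* (0.56), with overlapping groups and an interval from -0.28 to 1.41. *Pdia6* and *Sdf2l1* were separated with the Rev KO livers on the lower side, at 276 to 277 against 278 to 291 CPM and at 21.1 to 24.9 against 26.2 to 28.7 CPM (adjusted p = 0.936 and 0.732, edgeR), and 12.3% of all tested genes were separated in this direction. For *Calr*, *Dnajb11* and *Hsp90b1*, the log2 differences were -0.01, 0.02 and 0.15, and the 95% intervals ended at 0.30, 0.29 and 0.58. *Dnajc3* was at -0.15, with an interval from -0.39 to 0.10.

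At ZT20, 0 of the 10 members were called between the genotypes, by edgeR or by DESeq2, and 0 had an unadjusted p below 0.05 in edgeR. Over all tested genes, 3.63% were called. The log2 differences ranged from -0.17 (*Hspa5*, 95% interval -0.52 to 0.19) to 0.07 (*Calr*, -0.24 to 0.38), with a median of -0.05. The groups overlapped in all 10 members, whereas 22.5% of all tested genes had separate groups, and in each member the 3 WT values lay within the range of the 3 Rev KO values. The widest intervals were those of *Sdf2l1* (-0.65 to 0.78) and *Creld2* (-0.84 to 0.76), so that differences of this size could not be detected at ZT20.

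The genotype difference at ZT20 minus that at ZT8 was tested as an interaction, which was called for 5.88% of all tested genes and for 0 of the 10 members. The largest was that of *Hspa5* (-0.78, standard error 0.232, adjusted p = 0.0655, edgeR), the single member with an unadjusted p below 0.05. It passed with DESeq2 (-0.78, adjusted p = 0.0135), and in edgeR without replicate 1 of the Rev KO livers at ZT8 (-0.88, adjusted p = 0.046) or at ZT20 (-0.98, adjusted p = 0.0121). For *Creld2* and *Manf*, the interaction was -0.60 and -0.57 (adjusted p = 0.576 and 0.377, edgeR), and for the other 7 members it lay between -0.18 and 0.30. In terms of time of day, the rise of *Hspa5* was 2.75-fold in WT and 1.60-fold in Rev KO.

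The Rev KO livers at ZT20 varied in a concerted way. In all 10 members, replicate 1 was the highest, replicate 2 the middle and replicate 3 the lowest of the group, and the ratio of replicate 1 to replicate 3 ranged from 1.43 (*Dnajc3*) to 2.97 (*Sdf2l1*). Of all tested genes, 24.6% had this order and 5.73% had it with a ratio of at least 1.43. The coefficient of variation of the members in this group was between 18.3% and 51.1%, with a median of 26.3%, whereas its median over all tested genes was 8.66%. In the other groups, the member medians were 6.63% (WT at ZT8), 7.72% (Rev KO at ZT8) and 5.38% (WT at ZT20), against 9.96%, 10.5% and 8.79% over all tested genes. *Creld2* is an example of the spread, with 83.3, 55.6 and 30.9 CPM, the last of which was below its highest ZT8 liver. Genes outside the members shared this order in the same livers, among them *Hsp90aa1*, a cytosolic HSP90, at 99.1, 74.8 and 59.5 CPM, and the disulfide isomerase gene *Pdia3*, at 969, 763.5 and 546. The clock gene *Arntl* was at 45.1, 44.8 and 41.1. Replicate 1 was the lowest for *Alb* (55840, 66190 and 66130) and *Atf4* (112, 128 and 152). The 3 libraries had 24595098, 26060192 and 22544592 counted reads. The part of any of these in the spread was not tested.

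**Figure D3:**
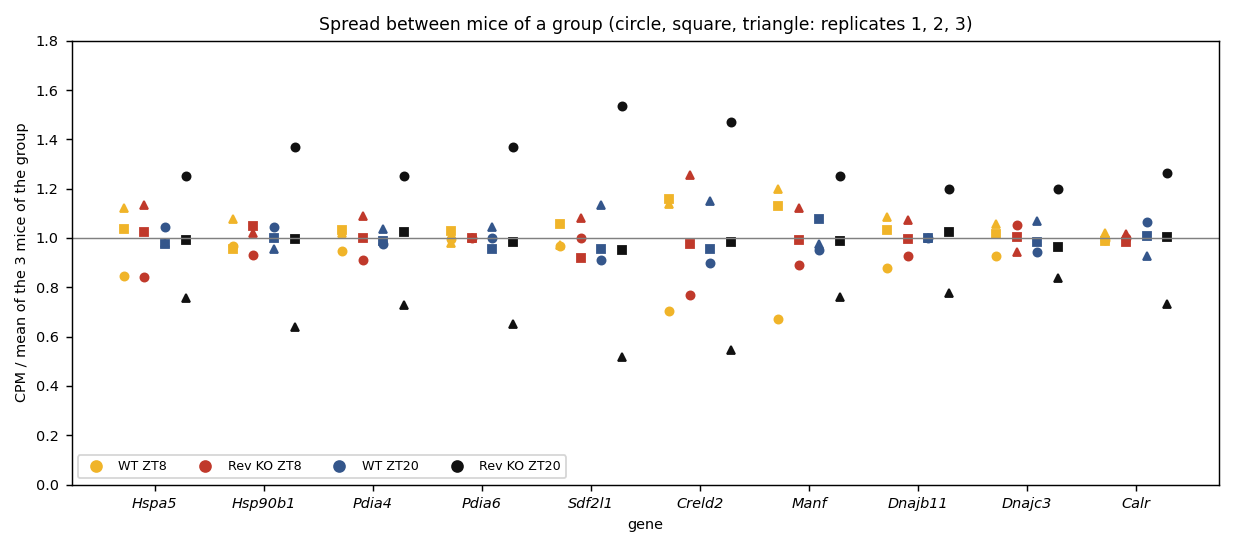
Level of each member in each liver divided by the mean of its group (vertical axis, ratio; 1 is the group mean), with colours for the 4 groups and symbols for replicates 1 to 3. The black symbols (Rev KO at ZT20) stand furthest apart in 9 of the 10 genes, and replicate 1 lies above and replicate 3 below the mean in each.

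Across the 12 livers, the members followed each other closely. Pearson's r of log2 CPM ranged from 0.77 (*Pdia6* with *Manf*) to 0.98 (*Hspa5* with *Manf*) over the 45 pairs, with a median of 0.91. Each member correlated with the mean of the other 9 at 0.91 or more, and at 0.75 (*Manf*) to 0.97 (*Pdia4*) after the group means were taken out. These are descriptions over 12 libraries that share the contrast of ZT8 with ZT20 and the wide Rev KO group at ZT20. Among the 14478 other tested genes, the 10 whose log2 CPM was most like the mean of the members were *Rpn1* (r = 0.98), *Pdia3* (0.97), *Canx* (0.97), *Gm12346* (0.97), *Hyou1* (0.96), *Acmsd* (0.96), *Atp8b1* (0.96), *Erp29* (0.96), *Gm5844* (0.96) and *Cnpy3* (0.96). *Rpn1* encodes a subunit of the oligosaccharyltransferase, *Pdia3* the disulfide isomerase ERp57, *Canx* the lectin chaperone calnexin and *Hyou1* the large ER chaperone GRP170. *Gm12346* and *Gm5844* are annotated as processed pseudogenes with 99.5% and 98.5% identity to *Hsp90aa1* over 2255 and 2202 aligned bases, so that their reads cannot be firmly separated from it.

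Further genes of the ER were examined in lists. Of 22 other ER folding factors, 13 rose and 2 fell from ZT8 to ZT20 in WT (median log2 change 0.31), and 11 rose and 0 fell in Rev KO (0.25). Over all tested genes, 27.7% were called in WT and 17.5% in Rev KO. The largest rise was that of *Hyou1*, from 86.0, 124 and 127 CPM to 341, 330.1 and 406 in WT (log2 change 1.68, adjusted p = 0.000667) and from 137, 155 and 188 to 487, 364.5 and 251.5 in Rev KO (1.20, adjusted p = 0.0076, edgeR), and in the latter group it had the same order of livers as the members. *Dnajb9*, which encodes ERdj4, a cochaperone of BiP, was the gene of this list with a called interaction (-0.92, adjusted p = 0.000729, edgeR). It rose from ZT8 to ZT20 in WT (0.66, adjusted p = 0.000108) and had a change of -0.25 in Rev KO (adjusted p = 0.0775, edgeR). It was higher in Rev KO at ZT8, with 49.3, 46.3 and 52.9 CPM against 33.4, 29.8 and 32.6 (log2 difference 0.63, adjusted p = 0.000759), and at ZT20 it was at 41.8, 39.2 and 43.7 against 56.7, 52.0 and 43.1 (-0.28, adjusted p = 0.133, edgeR). *Ero1l*, an oxidase that recharges disulfide isomerases, was the other gene of this list called at ZT8 (0.40, adjusted p = 0.0212, edgeR). Thus 2 of these 22 genes were called at ZT8 and 1 in the interaction, beside 8.45% and 5.88% of all tested genes.

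Of 13 transducers of the unfolded protein response, 3 rose and 1 fell in WT between the times, and 2 rose and 1 fell in Rev KO, with medians of 0.08 and -0.08. These counts stand beside 27.7% of all tested genes called in WT and 17.5% in Rev KO. *Atf6b*, a relative of *Atf6*, rose in both genotypes (log2 changes 0.77 and 0.56, adjusted p = 7.34e-06 and 0.00032, edgeR), and *Ern1*, which encodes IRE1, was the gene that fell in both (-0.24 and -0.36). *Atf4* and *Eif2ak3*, which encodes PERK, also rose in WT (0.43 and 0.385, adjusted p = 0.00462 and 0.0155, edgeR). Neither was called in Rev KO (adjusted p = 0.306 and 0.532, edgeR). *Xbp1* was at 219 to 295 CPM in the WT livers at ZT8 and at 277 to 291 at ZT20. Its log2 change was 0.13 in WT (adjusted p = 0.386) and 0.32 in Rev KO, a called rise (adjusted p = 0.0359, edgeR). Counts per gene do not separate its spliced, active form. *Ddit3*, which encodes the factor CHOP, was higher in Rev KO at ZT8, with 7.69, 9.89 and 8.91 CPM against 5.13, 5.53 and 5.69 (log2 difference 0.70, adjusted p = 0.00433), and its interaction was called (-0.67, adjusted p = 0.0468, edgeR). Of these 13 genes, 1 was called at ZT8 and 1 in the interaction, beside 8.45% and 5.88% of all tested genes.

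Of 19 genes of ER-associated degradation, which returns misfolded proteins to the cytosol, 6 rose and 1 fell in WT between the times, and 5 rose and 3 fell in Rev KO. Of all tested genes, 27.7% were called in WT and 17.5% in Rev KO. *Syvn1*, the ubiquitin ligase HRD1, went from 56.5, 61.1 and 58.3 CPM to 122, 128 and 162 in WT (log2 change 1.23, adjusted p = 3.44e-06) and was higher in Rev KO at ZT8, with 71.9, 73.7 and 91.2 (0.43, adjusted p = 0.0351, edgeR). At ZT8, *Edem3* was also higher in Rev KO (0.24, adjusted p = 0.0435), whereas *Edem2* was lower (-0.30, adjusted p = 0.012, edgeR). *Herpud1*, an ER membrane protein of the same pathway, was lower in Rev KO at ZT20, with 239, 233 and 244 CPM against 329.5, 335 and 394.5 (-0.56, adjusted p = 0.037, edgeR). *Syvn1* and *Herpud1* had a called interaction, -0.74 for *Syvn1* (adjusted p = 0.016) and -0.82 for *Herpud1* (adjusted p = 0.0235, edgeR). Thus 3 of these 19 genes were called at ZT8, 1 at ZT20 and 2 in the interaction, beside 8.45%, 3.63% and 5.88% of all tested genes.

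Among 21 genes of the translocon and of glycosylation, 8 rose in WT and 11 in Rev KO from ZT8 to ZT20 and 0 fell in either, with medians of 0.19 and 0.30, and *Ssr1*, a subunit of the translocon-associated complex, rose by 0.62 and 0.61. Of the 17 tested genes of COPII export and KDEL retrieval, 5 rose and 1 fell in WT, and 7 rose and 0 fell in Rev KO. Beside these lists, 27.7% of all tested genes were called in WT and 17.5% in Rev KO. Outside the ER, 7 of 12 cytosolic heat shock chaperones rose and 0 fell in WT (median 0.62), and 5 rose and 3 fell in Rev KO (0.11), with *Hsp90aa1* at 1.08 and 1.25 (adjusted p = 0.000504 and 0.000406, edgeR). The 7 mitochondrial chaperones had log2 changes between 0.05 and 0.30 in WT. The share called higher was 9 of 10 for the ER chaperones and 13 of 22 for the other folding factors in WT, beside 13.8% of all tested genes, and no test of the difference between lists was made.

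**Figure D4:**
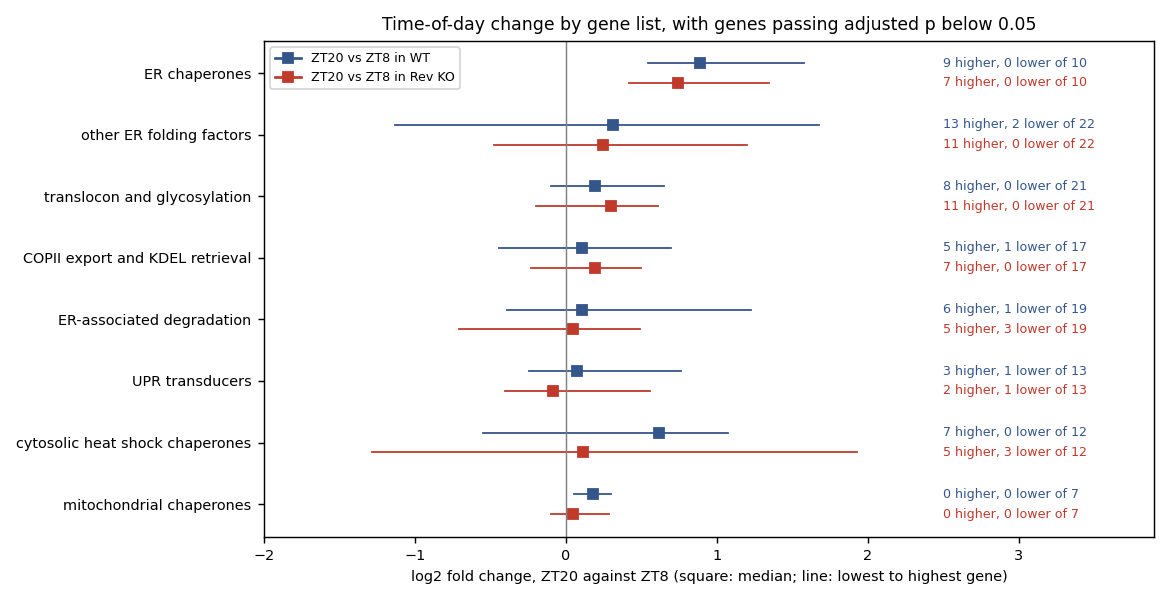
Log2 change from ZT8 to ZT20 (horizontal axis) for 8 gene lists, with the median as a square, the lowest to highest gene as a line, and the number of genes called higher or lower on the right, in blue for WT and in red for Rev KO. The ER chaperones have the highest medians, 0.89 and 0.74, and their lines do not cross 0 in either genotype.

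Some values that do not belong to the ER moved with time as well. Of 8 hepatocyte markers, 4 were called higher and 1 lower at ZT20 in WT, with *Alb* at a log2 change of 0.82 (adjusted p = 0.00507, edgeR), and their summed level was 54960 to 75630 CPM at ZT8 and 96710 to 106300 at ZT20. In Rev KO, 2 were called higher and 1 lower, and the sums were 62030 to 88990 and 85330 to 94420. The shares called over all tested genes were 27.7% in WT and 17.5% in Rev KO. Alignments to more than 1 place, which are not in the gene counts, numbered 1.76 to 3.28 per counted read at ZT8 and 1.24 to 1.67 at ZT20. Summed macrophage markers in WT were at 344, 448 and 544 CPM in replicates 1 to 3 at ZT8 and at 295 to 366 at ZT20. These ranges overlapped, the 2 higher sums were those of the livers with high *Saa1*, and 3 of 7 markers were called lower at ZT20. In Rev KO, the sums were 301 to 375 at ZT8 and 341 to 410 at ZT20. There, all 7 log2 changes were above 0 and 0 were called. The interaction was called for 2 of the 7 markers, *Cd68* and *Marco*, beside 5.88% of all tested genes. *Marco* was low, at 0.279 to 7.78 CPM over all livers. The part of these values in the change of the ER chaperones was not tested.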

How the data were processed

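Poly(A) RNA of 12 livers was sequenced on an Illumina instrument. According to the methods and the submitters' processing notes, the authors mapped the reads to mm10 with TopHat, counted reads with 1 alignment for each symbol in HTSeq, without regard to strand, and tested with DESeq2 1.6.3. The deposited counts are whole numbers without normalization for 38926 symbols, plus 5 summary lines, which were left out of library sizes.

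Groups and replicate numbers came from the sample titles. Genes were filtered with filterByExpr (14488 left), scaled with TMM and compared in edgeR 4.0.16 (R 4.3.3) with robust quasi-likelihood fits of 4 group means over all 12 libraries. Adjusted p is by Benjamini and Hochberg over all tested genes (threshold 0.05). Standard errors were taken from the log2 fold change and the F statistic, and intervals (95%) from the t distribution. Log2 CPM for correlations had a prior count of 2. The fits were tested on simulated data. Reads in exons shared with another gene are ambiguous and not counted. This concerns up to 10.3% of the annotated exon bases of *Hsp90b1*, which overlaps 1810014B01Rik on the other strand, and 4.71% of *Manf*. *Calr* has a processed pseudogene with 92.5% identity over 495 bases. No libraries of a group were duplicates (chi-square divided by degrees of freedom 7.6 to 142 between pairs). Same-numbered libraries did not deviate together (correlation -0.08 to 0.07 over 18 pairs), so the replicate block is an alternative only. Further alternatives were DESeq2 1.42.0, size factors, other filters, fits on the 6 libraries compared, an adjusted p of 0.01, and leaving out each library. Named were all members, the 10 genes most like the members, *Nr1d1*, *Arntl* and *Saa1*. From the lists, only some called genes were named, taken from up to 4 per list and comparison with the smallest adjusted p. For the cytosolic heat shock chaperones in WT, *Hspa4l*, *Stip1* and *Chordc1* had a smaller adjusted p than *Hsp90aa1* and were not described. The levels of *Alb*, *Atf4*, *Pdia3* and *Hsp90aa1* in single livers were added after their values were seen. Members and lists were chosen with earlier results of these data known. Gene positions are from GENCODE M21 (mm10), and promoters from RefSeq (GRCm38.p6).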

Additional observations from a re-analysis of the deposited data

How the results depend on the processing

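Counts of called ER chaperones moved mostly where the adjusted p lay close to the threshold. At ZT8, the count between genotypes was 1 and became 0 with the replicate block, at an adjusted p of 0.01 and with replicate 1 as the only WT liver at ZT8 (an alternative chosen after seeing the data, in which the lone library is assumed to vary like the other groups), and it ranged from 0 to 1 when single libraries were left out. At ZT20, the count between genotypes was 0 in each alternative run. Over the fits without 1 library, 3.68% to 12.3% of all tested genes were called between genotypes at ZT8 and 1.62% to 4.46% at ZT20. The interaction count was 0 and became 1 with DESeq2, and it ranged from 0 to 1 when single libraries were left out. Of all tested genes, 7.62% were called with DESeq2 and 3.35% to 8.56% in the fits without 1 library. From ZT8 to ZT20 in WT, the count of 9 ranged from 7 to 10 when single libraries were left out. Over all tested genes, 19.5% to 28.5% were called in these fits. *Pdia6*, *Sdf2l1* and *Creld2* did not pass at an adjusted p of 0.01. *Pdia6* and *Sdf2l1* also lost the threshold without a filter, and *Pdia6* with size factors. *Hsp90b1* gained it with DESeq2, with at least 10 counts in every library and on the 6 libraries compared. In Rev KO, the count of called members was 7, became 4 at an adjusted p of 0.01 and ranged from 5 to 10 when single libraries were left out. The shares over all tested genes were 8.5% at the stricter threshold and 10.6% to 19.3% without single libraries. With the replicate number as a block, the count of called members was 7 in WT and 6 in Rev KO, beside 26.8% and 16.6% of all tested genes. In these fits *Pdia6* (WT, adjusted p = 0.0523) and *Sdf2l1* (0.0679 and 0.0527, edgeR) lost the threshold. The replicate numbers pair no samples by the labels, and 2 of 12 libraries correlated best with one of their own number. Among single members, 0 called values changed sign. The cause of these shifts was not tested. With 3 libraries per group, differences between genotypes smaller than the intervals given could not be detected.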
